A study of Mus musculus with 8 samples.

Results

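The chromatin accessible after EBF1 degradation was compared between 2 mouse pro-B cell lines, EBF1-dTAG_N and EBF1-dTAG_C, each after 6 h with 0.5 uM dTAG-13, with 2 ATAC-seq libraries per line. ATAC-seq marks accessible DNA by the insertion of sequencing adapters with the Tn5 transposase. The members are the 4 peak lists of these libraries, out of 8 in the series; the other 4 come from the same lines treated with DMSO, the solvent. Both lines are A-MuLV (Abelson virus) transformed pro-B cells in which exogenous modified genes replace the endogenous EBF1, so that the controls carry the tagged protein too. The sources used here give neither what N and C stand for nor whether a line is 1 clone. The titles call the DMSO samples 0h and the treatment label gives them 6 h. Libraries are described as biological replicates, and the files hold no measure of EBF1 protein, so the degree of degradation was not analysed here. Peaks that overlapped by at least 1 bp were joined into 52985 regions. Of these, 22830 had a peak in all 4 lists, 3224 had one in both EBF1-dTAG_N lists and neither EBF1-dTAG_C list (N-only), and 1871 showed the reverse (C-only). These shares are 43.1%, 6.08% and 3.53% of all regions, and every later share of regions is read against them.

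EBF1 commits lymphoid progenitors to the B lineage: it binds closed chromatin, opens it, and switches on the genes of the pre-B cell receptor. In pro-B cells it works beside PAX5, E2A, FOXO1 and the signal of the IL-7 receptor, while RAG1 and RAG2 cut the immunoglobulin heavy chain locus. A dTAG degron is a protein tag through which the small molecule dTAG-13 brings the tagged protein to an E3 ubiquitin ligase, so that it is degraded within hours.

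Promoters show the 3 patterns that the comparison turns on, and the 250 bases before the start site of 7 genes are printed here, 5′ to 3′, from RefSeq on GRCm38.p6, with every match to 1 of 12 short motifs in capitals. Gsto2, a glutathione transferase (chr19:47865544-47865793, plus strand), and Fetub, a cystatin family protease inhibitor (chr16:22919972-22920221, plus strand), had a peak after dTAG-13 in both EBF1-dTAG_N lists only. Fzd7, a receptor for Wnt proteins (chr1:59481897-59482146, plus strand), and Slc39a8, a zinc transporter (chr3:135825407-135825656, plus strand), had one in both EBF1-dTAG_C lists only. Igll1 (chr16:16863986-16864235, minus strand), Vpreb1 (chr16:16869256-16869505, minus strand) and Vpreb2 (chr16:17980315-17980564, plus strand), which encode the surrogate light chain of the pre-B cell receptor, were open in all 4 lists.
Gsto2: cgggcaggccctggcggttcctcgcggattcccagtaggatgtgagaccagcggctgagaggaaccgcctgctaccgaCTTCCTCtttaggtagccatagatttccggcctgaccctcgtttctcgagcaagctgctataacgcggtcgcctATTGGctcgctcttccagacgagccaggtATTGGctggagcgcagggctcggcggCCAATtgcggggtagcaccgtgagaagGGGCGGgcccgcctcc
Fetub: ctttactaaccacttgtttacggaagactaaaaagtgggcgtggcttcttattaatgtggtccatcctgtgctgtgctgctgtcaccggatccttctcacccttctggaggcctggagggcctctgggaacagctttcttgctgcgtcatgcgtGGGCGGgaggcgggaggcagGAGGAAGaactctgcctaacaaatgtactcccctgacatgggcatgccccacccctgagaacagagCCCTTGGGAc
Fzd7: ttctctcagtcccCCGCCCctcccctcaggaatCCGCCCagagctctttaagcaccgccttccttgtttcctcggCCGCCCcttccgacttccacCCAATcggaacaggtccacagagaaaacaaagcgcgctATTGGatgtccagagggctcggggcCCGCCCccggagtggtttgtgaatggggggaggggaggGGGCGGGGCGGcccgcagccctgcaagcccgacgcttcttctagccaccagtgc
Slc39a8: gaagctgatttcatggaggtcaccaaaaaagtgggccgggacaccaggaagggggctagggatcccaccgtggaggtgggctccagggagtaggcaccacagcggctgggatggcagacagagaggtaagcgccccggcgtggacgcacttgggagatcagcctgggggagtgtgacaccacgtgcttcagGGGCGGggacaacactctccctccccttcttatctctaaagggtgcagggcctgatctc
Igll1: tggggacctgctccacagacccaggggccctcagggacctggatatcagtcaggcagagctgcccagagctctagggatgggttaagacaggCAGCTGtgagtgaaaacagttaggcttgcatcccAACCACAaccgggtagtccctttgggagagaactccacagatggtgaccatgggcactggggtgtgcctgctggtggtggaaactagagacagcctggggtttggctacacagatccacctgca
Vpreb1: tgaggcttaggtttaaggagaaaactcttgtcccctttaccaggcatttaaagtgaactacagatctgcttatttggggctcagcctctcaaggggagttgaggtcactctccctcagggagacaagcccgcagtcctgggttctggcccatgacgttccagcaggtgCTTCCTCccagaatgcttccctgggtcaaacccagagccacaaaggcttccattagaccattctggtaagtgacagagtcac
Vpreb2: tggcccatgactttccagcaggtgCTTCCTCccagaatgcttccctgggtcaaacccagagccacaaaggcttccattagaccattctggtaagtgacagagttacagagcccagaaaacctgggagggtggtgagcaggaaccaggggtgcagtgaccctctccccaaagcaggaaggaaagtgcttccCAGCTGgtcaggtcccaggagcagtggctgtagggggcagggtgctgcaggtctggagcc
The motifs, searched on both strands, were an EBF core (CCCNNGGGA), ETS (CCGGAAG), PU.1 (GAGGAAG), RUNX (TGTGGTT), AP-1 (TGANTCA), CRE (TGACGTCA), an E-box of E2A (CAGCTG), IRF (GAAANNGAA), the POU octamer (ATGCAAAT), NF-Y (CCAAT), SP/KLF (GGGCGG) and NRF1 (GCGCANGCG). The ETS and PU.1 words share the letters GGAAG. In the printed bases, the EBF core was found only in Fetub, together with PU.1 and SP/KLF. Gsto2 held PU.1, NF-Y and SP/KLF, and Fzd7 held NF-Y and SP/KLF. Igll1 held RUNX and the E-box, Vpreb1 held PU.1, and Vpreb2 held PU.1 and the E-box. A match describes the letters and is not a bound site. Vpreb1 and Vpreb2 are close copies, with an identical run of 91 bases inside these windows, so reads could be assigned to either and their values are uncertain.

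At the Gsto2 promoter the fold enrichment at the summit, MACS2's ratio of the reads there to the local background of the same library, was 17.2 and 20.8 in the EBF1-dTAG_N dTAG-13 lists and 20.7 and 18.5 in the EBF1-dTAG_N DMSO lists. No EBF1-dTAG_C list of either treatment had a peak. Fzd7 was the mirror image, at 17.9 and 21 in the EBF1-dTAG_C dTAG-13 lists and 22.6 and 22.1 with DMSO, without a peak in any EBF1-dTAG_N list. Both promoters separated the lines with DMSO as well as after dTAG-13. Fetub had 14.6 and 21.2 in EBF1-dTAG_N after dTAG-13, against 26.4 and 25.9 in EBF1-dTAG_N and 7.44 and 6.69 in EBF1-dTAG_C with DMSO. Igll1 lay at 7.09 and 7.01 in EBF1-dTAG_N and at 4.04 and 5.68 in EBF1-dTAG_C after dTAG-13, against 19.8, 18.7, 18.6 and 17.1 in the 4 DMSO lists. Every dTAG-13 list lay under every DMSO list there, and the 2 lines did not overlap, with EBF1-dTAG_N the higher (log2 difference 0.53, limma adjusted p = 0.447). On the quantile-normalised scale the lines did not overlap, in either direction, at 9669 of the 22830 regions in all 4 lists (42.4%). Vpreb2 lay at 8.47 and 14.8 in EBF1-dTAG_N and at 7.37 and 5.42 in EBF1-dTAG_C, against 18.6 to 20.3 with DMSO (log2 difference 0.75, limma adjusted p = 0.409). In the authors' deposited table of dTAG-13 against DMSO, the log2 fold change at Igll1 was -3.05 in EBF1-dTAG_N and -2.92 in EBF1-dTAG_C, and at Vpreb2 -2.29 and -2.76.

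The EBF1-dTAG_N dTAG-13 lists held 35851 and 39721 peaks (mean 37786 ± 2736.5, SD, n = 2) and the EBF1-dTAG_C lists 34382 and 34202 (34292 ± 127.3, SD, n = 2). The difference of 3494 peaks was as large as an exact 2-sided permutation test of 2 lists against 2 can register (p = 0.333, the smallest it allows). With DMSO the lists of the 2 lines interleaved, at 41613 and 40166 against 40440 and 42139 (difference of means N minus C -400, exact permutation p = 0.667). No source used here gives the number of reads per library. The lowest local background, which moves with the number of reads, was 0.348 and 0.372 reads in the EBF1-dTAG_N dTAG-13 lists and 0.229 and 0.258 in the EBF1-dTAG_C ones. EBF1-dTAG_C was therefore the shallower line by this measure, and the part of depth in the counts of line-only regions was not tested.

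Regions in all 4 lists within 1 kb of the gene's start site (of either end of the gene where no start site was in the table) were found for 10 of 13 pro-B markers, 1 of 8 T cell markers, 0 of 6 myeloid markers and 0 of 5 erythroid and megakaryocyte markers. By the promoter windows described below, 7665 of 26994 genes had one in a region of all 4 lists. The window is narrow: Klf1, an erythroid marker, had a gene-body region in all 4 lists at 28.9, 31.7, 22.3 and 22. Within 100 kb, 28 of 29 listed B lineage genes with a region had one in all 4 lists. The counts were 10 of 13 for T and innate lymphoid, 7 of 14 for myeloid and 8 of 13 for erythroid and megakaryocyte genes. Over every gene with a region the share was 76.7%. Cd79a, which encodes the alpha chain through which the B cell receptor signals, had 18.6, 18, 19.8 and 17.9 (N, N, C, C) after dTAG-13 and 23, 20.1, 20.9 and 19.2 with DMSO, so that both EBF1-dTAG_N dTAG-13 lists lay under both of its DMSO lists. In the authors' deposited table the log2 fold change at the Cd79a promoter was -0.19 in EBF1-dTAG_N and -0.58 in EBF1-dTAG_C. Pax5 had 6.1, 7.98, 7.13 and 7.19, and the start of Ebf1 itself had 21.4, 25, 22.6 and 18.4. The lines overlapped at all 3 of these sites, so that defining pro-B promoters were open in both. Of the other pro-B markers, Rag2 and Dntt (the polymerase TdT) had no start-site peak in a dTAG-13 list, and Rag1 had one in 1 EBF1-dTAG_N dTAG-13 list at 7.29, against 9.79, 9.41 and 7.28 in 3 of the 4 DMSO lists. The T cell marker open in all 4 lists was Lck, a SRC family kinase, at 8.58, 7.32, 11.1 and 7.12.

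The shared landscape was made largely of regions that were also open with DMSO. Of the 22830 regions in all 4 lists, 20365 (89.2%) also had a peak in all 4 DMSO lists, and 67 (0.293%) in none of them. Read from the other side, 26863 regions were in all 4 DMSO lists, of which 75.7% were in all 4 dTAG-13 lists, 7.07% in none of them, 2.2% in both lists of EBF1-dTAG_N and neither of EBF1-dTAG_C, and 0.54% in the reverse pattern. Within 1 kb of an end of a protein-coding gene lay 36.7% of the regions in all 4 lists, against 8.65% of N-only and 8.44% of C-only regions. Line-only regions were more often inside gene bodies, at 48% (N-only) and 53.3% (C-only) against 34.4%. They were also weaker: the lower of the 2 values of the line that had the peak had a median of 6.07 for N-only and 6.45 for C-only regions, and reached 10 in 188 and 166 of them (5.83% and 8.87%). At regions in all 4 lists the lowest of the 4 values had a median of 10.5 and reached 10 in 53.2%. Asking for no peak in the other line favours regions near the peak threshold.

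The 10 regions with the highest mean rank over the 4 lists lay 5.42 kb from Cd209a, a C-type lectin (49.4, 51, 48.8 and 50.7), in Il31ra, a cytokine receptor chain (43.5, 43.9, 42.8 and 47.4), 5.03 kb from Skor1 and 18.6 kb from Snx32, at the ends of Cdc25c, Nkiras1, Hibch, Prc1 and Cfdp1, and in Adora2a, an adenosine receptor gene. Cdc25c, the phosphatase that starts mitosis, had 34.8, 39.2, 38 and 36.3, and Prc1, a regulator of the dividing spindle, had 34.7, 36.7, 33.9 and 33.4. They were chosen for a high rank in all 4 lists, which fixes both their high values and, since quantile normalisation gives equal ranks equal values, near-equal values in the 2 lines.

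N-only regions outnumbered C-only regions by 3224 to 1871. When each list was reduced to its 34202 best peaks by p-value, so that all were of equal length, the counts came to 2396 N-only and 2315 C-only. The count of regions in all 4 lists was then 22216. A further 4255 regions were in both EBF1-dTAG_N lists and 1 EBF1-dTAG_C list, and 2222 in both EBF1-dTAG_C lists and 1 EBF1-dTAG_N list. In those near misses the 1 peak of the other line had a median fold enrichment of 7.15 and 6.68, beside 6.76 and 6.62 for the lower peak of the holding line. The 10 named regions of each direction below were line-only also with a -log10 q of at least 5 or 10, with summits within 250 bp in place of overlap, and with lists of equal length. Stricter q and equal length only remove peaks, and these regions were chosen for high values. Their class under those settings was therefore largely fixed by the choice.

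The strongest N-only regions were sites that EBF1-dTAG_N also held with DMSO. A region in the gene body of Tmeff2, a transmembrane protein with follistatin-like domains (chr1:51104715-51105116), had 21.3 and 24.3 after dTAG-13 and 26.9 and 24.5 with DMSO in EBF1-dTAG_N, and no peak in any EBF1-dTAG_C list. The same all-or-none pattern was seen at the end of Gm9222 (chr12:17881587-17882050; 21.2 and 21.4 after dTAG-13), in Bsn, which encodes the presynaptic scaffold Bassoon (chr9:108104783-108105159; 19.3 and 20.4), in Luzp2 (chr7:54909847-54910253; 17.9 and 19.5), 7.24 kb from Gm5134 (17.7 and 17.7) and at Gsto2. In 4 of the 10, EBF1-dTAG_C had peaks with DMSO. Mctp1, a calcium-binding membrane protein (chr13:76579444-76579756), had 21.2 and 19.8 in EBF1-dTAG_N after dTAG-13, and with DMSO 21.5 and 17.8 in EBF1-dTAG_N and 14.9 and 7.51 in EBF1-dTAG_C. In the authors' deposited table this region had a log2 fold change of 0.12 in EBF1-dTAG_N and -1.57 in EBF1-dTAG_C. The other 3 were near Gm3604, in Armc3 and in 4930486L24Rik, with EBF1-dTAG_C DMSO values of 5.21 to 6.76.

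The strongest C-only region lay in Bcr (chr10:75146061-75146404), a gene known as the fusion partner of the ABL kinase in human leukaemia, with 25.1 and 25.2 after dTAG-13 and 27.5 and 22.3 with DMSO in EBF1-dTAG_C and no peak in EBF1-dTAG_N. Nabp1, a single-strand DNA binding protein, had a region 30.6 kb away (chr1:51509042-51509400) at 21.6 and 20.3. Fbxl17, an F-box protein, had one 33.4 kb away (chr17:63012116-63012595) at 21 and 22.6, above its DMSO values of 13.1 and 12.7, although the summit reads, 68 and 62, were below the 81 and 94 with DMSO. Lrrc15, Cfap61, Slc28a1 and Camta2 held gene-body regions with lower values of 16.4 to 16.9. All of these, and Fzd7, were without a peak in both EBF1-dTAG_N DMSO lists. The exceptions among the 10 were Rap2a, a RAS family GTPase, whose gene end had a peak of 23.6 in 1 EBF1-dTAG_N DMSO list and in no EBF1-dTAG_N dTAG-13 list, and Gm46617, with 5.68 in 1 EBF1-dTAG_N DMSO list.

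**Figure D1:**
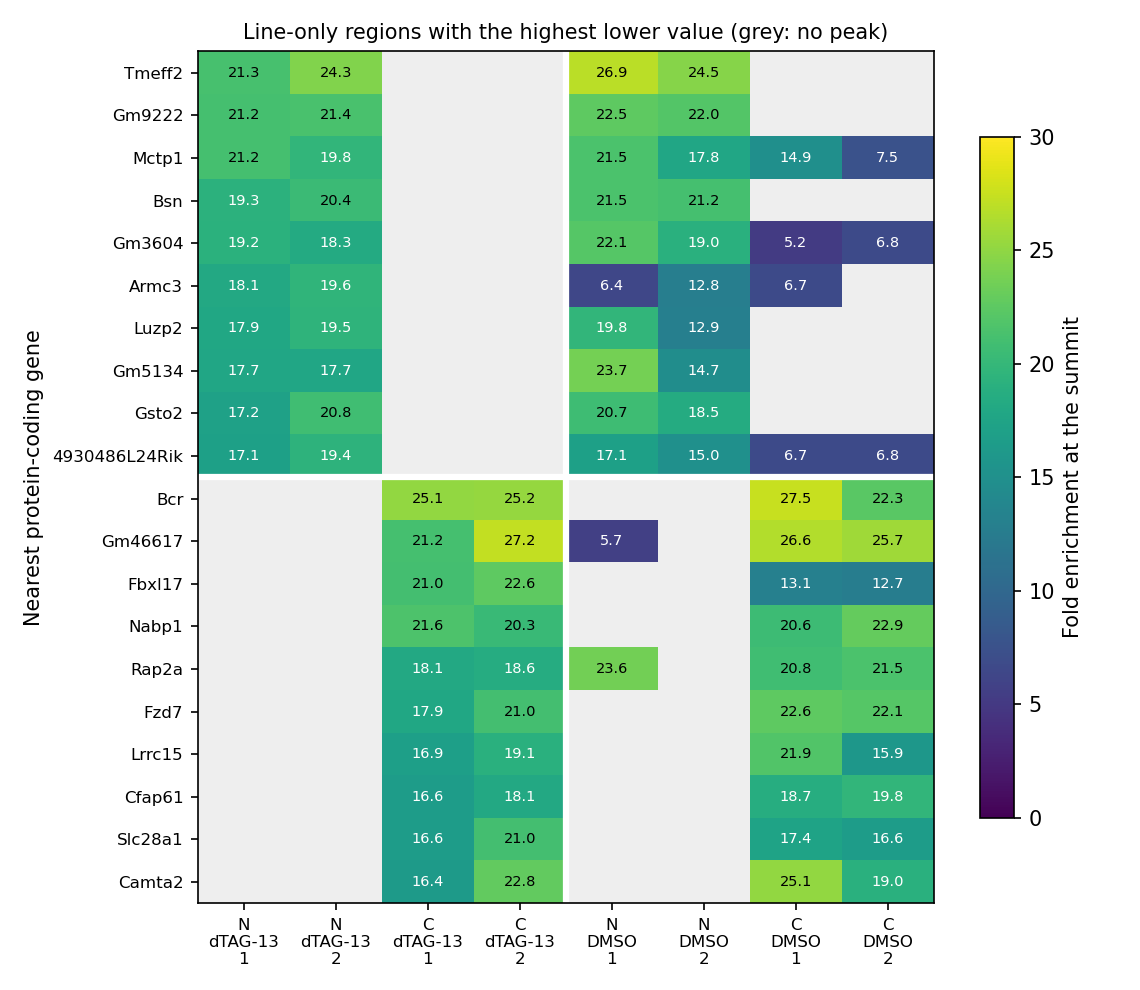
Fold enrichment at the summit (colour and printed value) of the 10 N-only regions (upper block) and 10 C-only regions (lower block) with the highest lower value, in the 4 dTAG-13 lists and the 4 DMSO lists; grey cells are lists without a peak. Tmeff2 and Bcr show values above 21 in every list of 1 line and no peak in the other, whereas Mctp1 had peaks of 14.9 and 7.51 in EBF1-dTAG_C with DMSO.

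Over all line-only regions the DMSO lists showed different histories for the 2 lines. Of the 3224 N-only regions, 543 (16.8%) were N-only with DMSO as well, 595 (18.5%) were in all 4 DMSO lists, and 544 (16.9%) were in no DMSO list. Of the 1871 C-only regions, 708 (37.8%) were C-only with DMSO as well, 140 (7.48%) were in all 4 DMSO lists, and 270 (14.4%) were in none. N-only regions thus held more sites that both lines had with DMSO, and C-only regions more sites that only EBF1-dTAG_C had. The EBF1-dTAG_C dTAG-13 lists were also the shallowest by lowest local background, and the part of depth in these shares was not tested. With lists of equal length the first shares came to 18.3% and 29.3%, and the other shares are given for the full lists only. An EBF1-dTAG_C DMSO peak lay at 52.5% of N-only regions, and an EBF1-dTAG_N DMSO peak at 25.3% of C-only regions. No test was run on these shares, because regions of the same lists are not replicates.

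**Figure D2:**
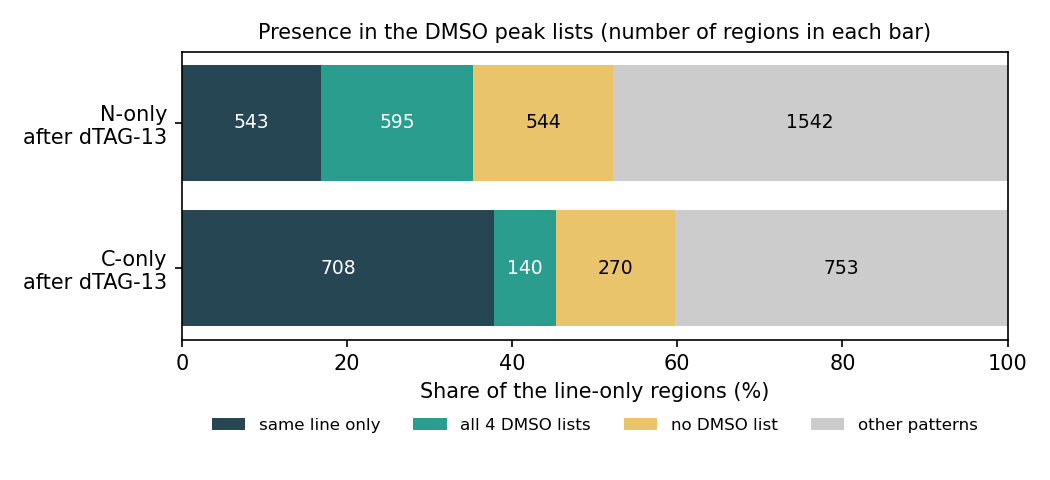
Share of N-only (upper bar) and C-only (lower bar) regions, in percent, by their presence in the 4 DMSO lists, with the number of regions printed in each segment. The segment of regions in the same line only is 543 of 3224 for N-only and 708 of 1871 for C-only, and the segment in all 4 DMSO lists is 595 and 140.

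The 595 N-only regions in all 4 DMSO lists were mostly sites with a negative fold change in both lines, 68.9% of them in the authors' deposited table of EBF1-dTAG_N and 88.9% in that of EBF1-dTAG_C. In the authors' deposited tables their median log2 fold change after dTAG-13 was -0.61 in EBF1-dTAG_N and -0.92 in EBF1-dTAG_C, against 0.22 and 0.12 over the regions in all 4 dTAG-13 lists. At least 2-fold lower in those tables were 42% of them in EBF1-dTAG_N and 45.9% in EBF1-dTAG_C, against 3.3% and 2.96%. Their median fold enrichment with DMSO was 12.7 and 12.4 in EBF1-dTAG_N and 8.12 and 9.02 in EBF1-dTAG_C, so that the line that kept the peak also had the higher medians with DMSO. For the 140 C-only regions in all 4 DMSO lists the medians of the authors' deposited tables were -0.64 (EBF1-dTAG_N) and -0.15 (EBF1-dTAG_C). Choosing regions with DMSO peaks in both lines and dTAG-13 peaks in only 1 favours negative values in the line without them. Those tables come from the same libraries. This bears on the EBF1-dTAG_C values of the 595 regions and on the EBF1-dTAG_N values of the 140. Regions of no DMSO list had positive medians in the table of the line that had them, 1.03 for 544 N-only and 0.90 for 270 C-only regions, a sign that choosing regions with dTAG-13 peaks and no DMSO peak in the same libraries fixes.

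Regions of this kind with the highest DMSO values, chosen after the values were seen, included an intragenic site of Ell2, an elongation factor used in plasma cells (chr13:75726996-75727333). It had 34.6 and 33.4 in EBF1-dTAG_N and 31.4 and 32.4 in EBF1-dTAG_C with DMSO, and 7.27 and 17.7 in EBF1-dTAG_N after dTAG-13, with no EBF1-dTAG_C peak. The authors' deposited table gave it log2 fold changes of -3.44 (EBF1-dTAG_N) and -4.80 (EBF1-dTAG_C). Sites in Ankrd44 (-3.42 and -3.81), Stk10, a lymphocyte kinase (-3.20 and -3.47), and Samd4 (-3.65 and -4.26) had the same order in the authors' deposited tables. Both lines were far below DMSO at these sites, and only in EBF1-dTAG_N did the remainder pass the peak threshold. In the reverse class, a site in Il10ra, the IL-10 receptor chain (chr9:45267196-45267406), had 20.1 and 18.6 in EBF1-dTAG_N and 17.2 and 15.4 in EBF1-dTAG_C with DMSO, and 7.73 and 6.42 in EBF1-dTAG_C alone after dTAG-13. Its log2 fold changes in the authors' deposited table were -2.27 in EBF1-dTAG_N and -1.36 in EBF1-dTAG_C. Of the other 5 C-only sites picked the same way, Rbm19 (-3.98 and -1.22), Cmtr2 (-2.24 and -0.72) and Brd7 (-3.12 and -2.10) had the same order in the authors' deposited tables. Znrf3 (-1.94 and -2.01) and Rgs6 (-3.49 and -3.57) had close values, slightly lower in EBF1-dTAG_C, the line that kept the peak. Choosing sites whose peak was kept in 1 line favours a lower fold change in the other line, in tables from the same libraries. The order in those tables is therefore no separate evidence for a line difference.

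At the 22830 regions in all 4 lists the summit fold enrichment was tested on a log2 scale after quantile normalisation with limma. Its lists correlated at r = 0.883 within EBF1-dTAG_N, 0.831 within EBF1-dTAG_C and 0.791 to 0.807 between the lines, a description across regions, which are not independent replicates. No region was higher in EBF1-dTAG_N (0 of 22830, 0%) and none in EBF1-dTAG_C (0, 0%) at a Benjamini-Hochberg adjusted p under 0.05, and the lowest adjusted p was 0.204. At an unadjusted p under 0.05 there were 1376 and 1414 regions. With limma's variance trend the calls were 36 and 28. With summit reads in place of fold enrichment and the spread taken over all 8 lists, an alternative added after the data were seen, they were 250 and 274. Each of these 2 changes alone left 0 and 0. With 2 lists a line the count of called regions therefore depended on the model of the spread and on the joint choice of value and spread.

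Most shared regions were close in the 2 lines: 98.4% differed by less than 2-fold and 90.4% by less than 1.5-fold, with a median absolute log2 difference of 0.18 beside a median SD of 0.13 between the EBF1-dTAG_N lists and 0.15 between the EBF1-dTAG_C lists. The 5th and 95th percentiles were -0.57 and 0.58. Differences of at least 2-fold with no overlap of the lines were found at 170 regions higher in EBF1-dTAG_N (0.745%) and 193 higher in EBF1-dTAG_C (0.845%). Gene ends were the most equal places, with 44 such regions among 8374 (0.525%), against 167 of 7862 (2.12%) in gene bodies. Outside genes there were 115 of 5638 (2.04%) within 100 kb of a protein-coding gene and 37 of 956 (3.87%) farther away.

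Among the 10 regions named as higher in EBF1-dTAG_N, all with an adjusted p of 0.204, 1 lay 33.8 kb from Tigit, an inhibitory receptor of T and NK cells (chr16:43698948-43699267), with 20.7 and 22.6 in EBF1-dTAG_N against 6.51 and 4.77 in EBF1-dTAG_C (log2 difference 1.90 ± 0.20 SE). Another lay 3.46 kb from the chemokine gene Ccl1 (chr11:82183273-82183844) with 20.6 and 21.8 against 5.69 and 5.56 (1.87 ± 0.14). Csgalnact1, an enzyme of chondroitin sulphate synthesis, had a gene-body region at 21.5 and 28.1 against 7.26 and 7.15. The receptor tyrosine kinase gene Ret had one at 16.7 and 17.3 against 6.08 and 5.68. In EBF1-dTAG_N the Ret values lay above those with DMSO, 12.5 and 11.2, although the summit reads, 52 and 63, were below the 90 and 72 with DMSO and the authors' deposited table gave a log2 fold change of -1.47. The regions near Tigit, Ccl1, Csgalnact1 and Ret were 2.77 to 3.74 times as high in EBF1-dTAG_N, and with DMSO at least 1 EBF1-dTAG_C list had no peak at these 4 sites while both EBF1-dTAG_N lists did. The others were near Luzp2, Rpl11 and Trmt9b and in Tmtc1, Immp2l and Grap2, the last an adaptor of antigen receptor signalling, with log2 differences of 1.19 to 1.61.

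Among the 10 named as higher in EBF1-dTAG_C, also all with an adjusted p of 0.204, a region in F830045P16Rik (chr2:129489487-129489841) had 17.2 and 16.9 in EBF1-dTAG_C against 5.19 and 5.1 in EBF1-dTAG_N (log2 difference N minus C -1.76 ± 0.15 SE). A region 65.3 kb from Mtx3, a mitochondrial import protein (chr13:92923518-92923889), had 19 and 21.5 against 6.68 and 5.83 (-1.73 ± 0.16). Pik3r5, a regulatory subunit of PI3 kinase gamma, had a gene-body region at 12.3 and 13.5 against 5.19 and 4.37 (-1.47 ± 0.17). At F830045P16Rik and Mtx3 neither EBF1-dTAG_N DMSO list had a peak, so that these sites separated the lines with DMSO too. The end of Psat1, an enzyme of serine synthesis, had 14.5 and 15.9 against 6 and 5.61, and 5 others lay near Olfr433, Cdc5l, Arl4c, Bambi and in Nol4l.

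The direction of these differences was looked up in the DMSO lists, whose values the 2-fold rule did not use. Of the 170 regions higher in EBF1-dTAG_N, 127 were in all 8 lists, and in 97 of them (76.4%) both EBF1-dTAG_N DMSO lists lay above both EBF1-dTAG_C DMSO lists, against 21.6% of all 20365 such regions. Of the 193 higher in EBF1-dTAG_C, 100 were in all 8 lists and 78 (78%) had EBF1-dTAG_C higher with DMSO without overlap, against 24%. The reverse order with DMSO was found in 1 and 2 of them. The median log2 difference was smaller with DMSO, at 0.65 against 1.14 after dTAG-13 and at -0.76 against -1.16, which are values of regions chosen for a large difference after dTAG-13.

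**Figure D3:**
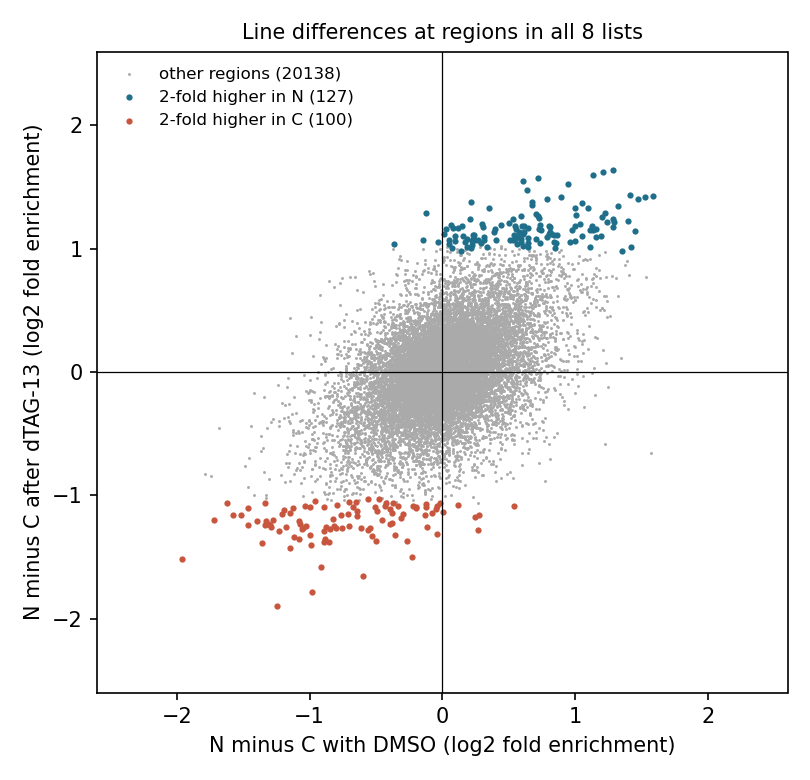
Difference between the lines in log2 fold enrichment (N minus C, mean of 2 lists each) with DMSO (x axis) and after dTAG-13 (y axis) at the 20365 regions in all 8 lists, 1 point per region. The 127 regions at least 2-fold higher in EBF1-dTAG_N after dTAG-13 lie mostly at positive x and the 100 higher in EBF1-dTAG_C mostly at negative x.

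Genes of the B lineage showed both shared regions and regions of 1 line. The list of 30 B lineage and EBF1 target genes held 216 regions near 29 genes, of which 104 (48.1%) were in all 4 lists, 10 (4.63%) N-only and 4 (1.85%) C-only. Over every gene with a region the shares were 44%, 5.85% and 3.52%, and 15.8% of genes had an N-only region and 10.3% a C-only region. In this list 7 of 29 genes (24.1%) had an N-only region and 4 (13.8%) a C-only region. None of its shared regions passed the test, and their median difference was -0.03 beside -0.01 over all genes.

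At a site 11 kb from Il7r, the receptor chain through which IL-7 sustains pro-B cells (chr15:9494775-9495179), fold enrichment after dTAG-13 was 5.87 and 7.18 in EBF1-dTAG_N and 13 and 13 in EBF1-dTAG_C, against 22.4, 23, 24 and 23.2 in the DMSO lists (N minus C -1.08 ± 0.16 SE, adjusted p = 0.204). Both lines lay under their DMSO lists and EBF1-dTAG_N lay under EBF1-dTAG_C, and the test of a change in the line difference with treatment gave -1.06 (limma, unadjusted p = 0.000504, adjusted p = 0.673). In the authors' deposited table the log2 fold change there was -3.09 in EBF1-dTAG_N and -1.97 in EBF1-dTAG_C. The opposite order was seen at an end of Ebf1 itself (chr11:45008022-45008432), with 20.2 and 17.9 in EBF1-dTAG_N and 8.54 and 8.18 in EBF1-dTAG_C after dTAG-13 and 22.7 to 26.4 with DMSO (1.11 ± 0.17, adjusted p = 0.204). The authors' deposited tables gave this Ebf1 site log2 fold changes of -0.81 in EBF1-dTAG_N and -1.02 in EBF1-dTAG_C, which lie closer together than the fold enrichments. How the gene was modified in each line was not analysed here.

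Blk, a SRC family kinase of B cells, had a shared gene-body region (chr14:63377346-63377736) at 5.14 and 4.50 in EBF1-dTAG_N and 10.4 and 12.3 in EBF1-dTAG_C, against 8.41 and 12.4 and 21.3 and 15.7 with DMSO. It also had a C-only region elsewhere in the gene body (chr14:63411559-63411851) at 11.1 and 11.6. EBF1-dTAG_C had the higher values at the shared site, and it did with DMSO too. The C-only site has no EBF1-dTAG_N value by its definition. Of the 6 regions tied to Blk, 1 was in all 4 lists and 1 was C-only. Ebf1 had an N-only region inside the gene (chr11:44928470-44928739) at 12 and 10.4, and Foxo1, a partner of EBF1 in early B cells, had one 55.8 kb away at 8.9 and 16.4.

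**Figure D4:**
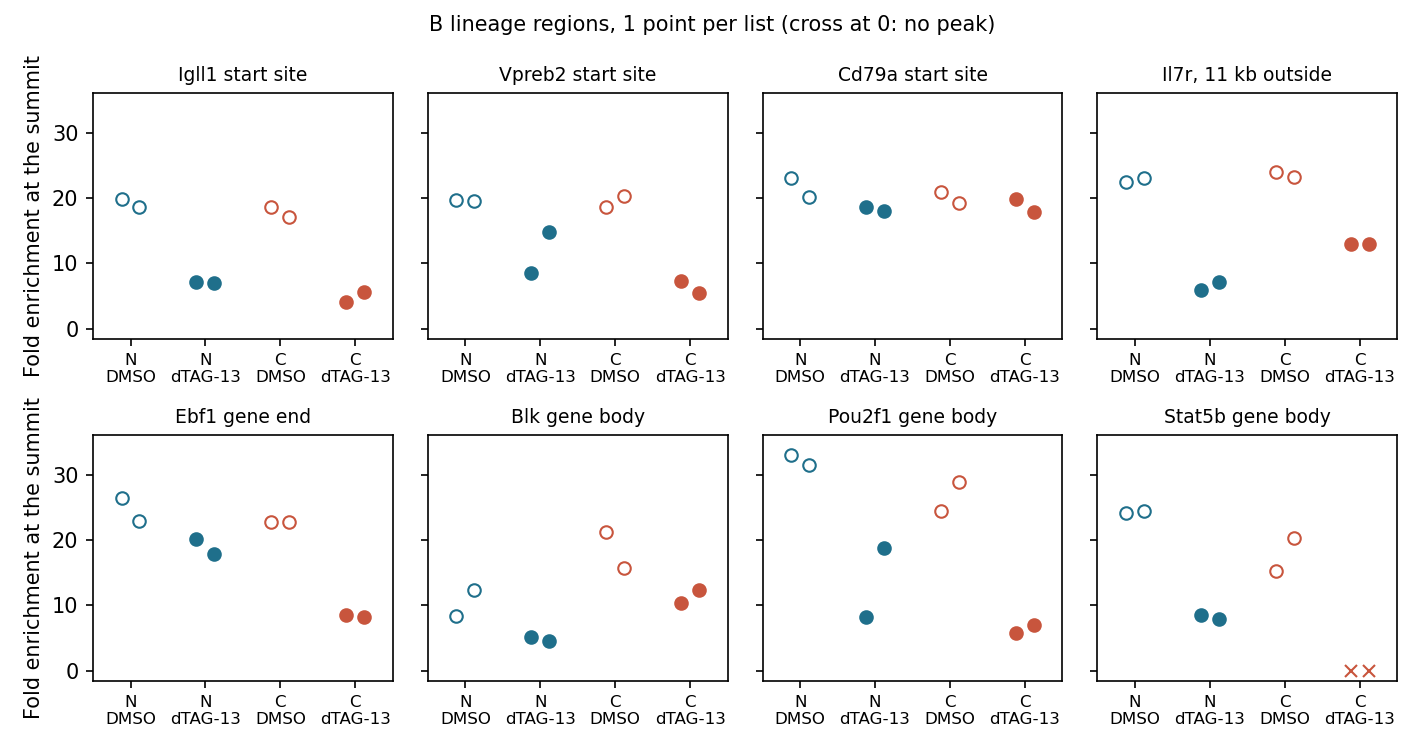
Fold enrichment at the summit (y axis) in each list of the 4 groups for 3 start sites and 5 other regions of B lineage genes; open circles are DMSO lists, filled circles dTAG-13 lists, and crosses at 0 lists without a peak. Igll1 and Vpreb2 lay under their DMSO lists in both lines, Cd79a lay at 17.9 to 19.8 after dTAG-13 and at 19.2 to 23 with DMSO, and the site 11 kb from Il7r lay at 5.87 and 7.18 in EBF1-dTAG_N against 13 in both EBF1-dTAG_C lists.

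The 36 B lineage transcription factors held 551 regions, with 35 (6.35%) N-only and 15 (2.72%) C-only. Foxp1 had 7 of the N-only regions, the strongest at 9.48 and 11, and an N-only region near Id2, whose protein blocks E proteins, had 9.36 and 17.1 at a distance of 47.4 kb. Ets1 (8.52 and 8.82) and Bach2 (8.44 and 9.47), 2 transcription factors of lymphocytes, had C-only gene-body regions, both with peaks in the 2 EBF1-dTAG_C DMSO lists and in no EBF1-dTAG_N DMSO list. A shared site in Pou2f1, which encodes OCT1 (chr1:165976682-165976974), had 8.28 and 18.8 in EBF1-dTAG_N and 5.76 and 7.04 in EBF1-dTAG_C, against 24.5 to 33 with DMSO. The EBF1-dTAG_N lists were far apart there, and the line difference was 0.92 ± 0.37 SE (adjusted p = 0.426). A site in Runx1 had 5.41 and 6.57 against 14 and 10.1 (-1.06 ± 0.23, adjusted p = 0.222).

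Antigen receptor signalling genes had regions of either line in near-equal numbers. The 29 genes of the pre-B cell receptor and PI3 kinase list held 274 regions, with 16 (5.84%) N-only and 15 (5.47%) C-only. Of their 128 shared regions, 4 were at least 2-fold higher in EBF1-dTAG_C and 0 in EBF1-dTAG_N, beside 0.845% and 0.745% of all shared regions. Those 4 were near Blk, Pik3cg (14.3 and 16.3 against 6.68 and 7.12), Fyn (16.3 and 15.3 against 6.9 and 7.43) and Pik3ap1, the adaptor BCAP (12.1 and 16.3 against 5.97 and 6.98). EBF1-dTAG_C was the higher line at these sites with DMSO too. Pik3cg had DMSO values of 16.6 and 13 in EBF1-dTAG_C and no EBF1-dTAG_N DMSO peak. Fyn had 7.98 and 16.6 against 7.1 and 5.52, and Pik3ap1 14.7 and 15.9 against 7.18 and 7.14. Syk, the kinase bound to the receptor, had an N-only region 72.7 kb away (chr13:52721452-52721784) at 15.6 and 18.7. A region of Nfkb1, on the AP-1 and NF-kB list, was N-only at 14.3 and 20.6. Both the Syk and the Nfkb1 region were N-only with DMSO as well, at 14.8 and 15.4 and at 17.1 and 13.4.

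In the IL-7 receptor and STAT5 list, with 7 N-only (7%) and 4 C-only (4%) of 100 regions, a site in Stat5b (chr11:100843221-100843529) had 24.2 and 24.5 in EBF1-dTAG_N and 15.3 and 20.3 in EBF1-dTAG_C with DMSO. After dTAG-13 it had 8.5 and 7.98 in EBF1-dTAG_N and no peak in EBF1-dTAG_C. The authors' deposited table gave log2 fold changes of -2.77 and -3.21. The same course was seen 15.8 kb from Ccr7, the homing receptor for lymph nodes (DMSO 13.6 and 14.4 in EBF1-dTAG_N, and 10.1 and 11 in EBF1-dTAG_C; after dTAG-13 6.12 and 8.67 in EBF1-dTAG_N only; -1.26 and -2.09 in the authors' deposited table). At both sites the 4 DMSO lists had a peak and the authors' deposited tables gave negative values in both lines. The choice of N-only regions favours a negative value in EBF1-dTAG_C at such sites.

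Line-only regions were also found near genes of other lineages. The 15 stem and progenitor genes had 7 N-only regions of 58 (12.1%) and 0 C-only, near 4 of 9 genes, among them Hoxa9 (8.03 and 9.25), Flt3 and Cd93. A shared region 78.6 kb from Cd93 had 15.9 and 15.3 in EBF1-dTAG_N and 8.28 and 6.92 in EBF1-dTAG_C, with a DMSO peak in 1 EBF1-dTAG_C list only (6.41), and log2 fold changes of 3.13 and 1.82 in the authors' deposited table. The 18 myeloid markers had 2 N-only and 5 C-only regions of 55 (3.64% and 9.09%), the latter near Cebpb (13.4 and 14.4), Csf3r (13.8 and 11.9), which encodes the G-CSF receptor, Fcgr1 and Csf1r (7.43 and 10.6 at a gene end). Over every gene with a region the shares were 5.85% and 3.52%. Of the 5 C-only regions, 3 were C-only with DMSO as well, among them that near Cebpb (7.21 and 5.46 with DMSO). Of 6 defining myeloid genes, Itgam, Mpo, Elane and Cebpa had no start-site peak in any dTAG-13 list, Csf1r had the 2 EBF1-dTAG_C values above, and Lyz2, which encodes lysozyme, had a start-site peak in 1 EBF1-dTAG_N list (7.42) and 1 EBF1-dTAG_C list (6.36) and in no DMSO list. Cd3e, a chain of the T cell receptor complex, had a C-only region at its end (6.77 and 7.95) without a peak in any DMSO list. Housekeeping genes had 3 N-only and 0 C-only regions of 72.

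The other lists had few line-only regions each. Proliferation, survival and Abelson pathway genes had 11 N-only (5.24%) and 6 C-only (2.86%) regions of 210, and Ccnd1, the G1 cyclin, had both, with an N-only gene-body region at 7.65 and 10.3 and a C-only region at its end at 8.58 and 6.48. A further region, 1.56 kb from Ccnd1, was shared and higher in EBF1-dTAG_C (12.4 and 13.5 against 6.54 and 6.25; adjusted p = 0.204). Homing and cytokine receptor genes had 8 (5.37%) and 5 (3.36%) of 149. AP-1, NF-kB and immediate early genes had 4 (3.23%) and 2 (1.61%) of 124, and MHC class II and antigen presentation genes had 2 (3.12%) and 3 (4.69%) of 64. Interferon and innate sensing genes had 5 (9.43%) and 2 (3.77%) of 53, V(D)J recombination genes 3 and 3 of 50 (6% each), T and innate lymphoid markers 3 (4.69%) and 1 (1.56%) of 64, and erythroid and megakaryocyte markers 2 (7.14%) and 3 (10.7%) of 28. In a list of 100 regions or fewer, 1 region makes up 1 percentage point or more.

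**Figure D5:**
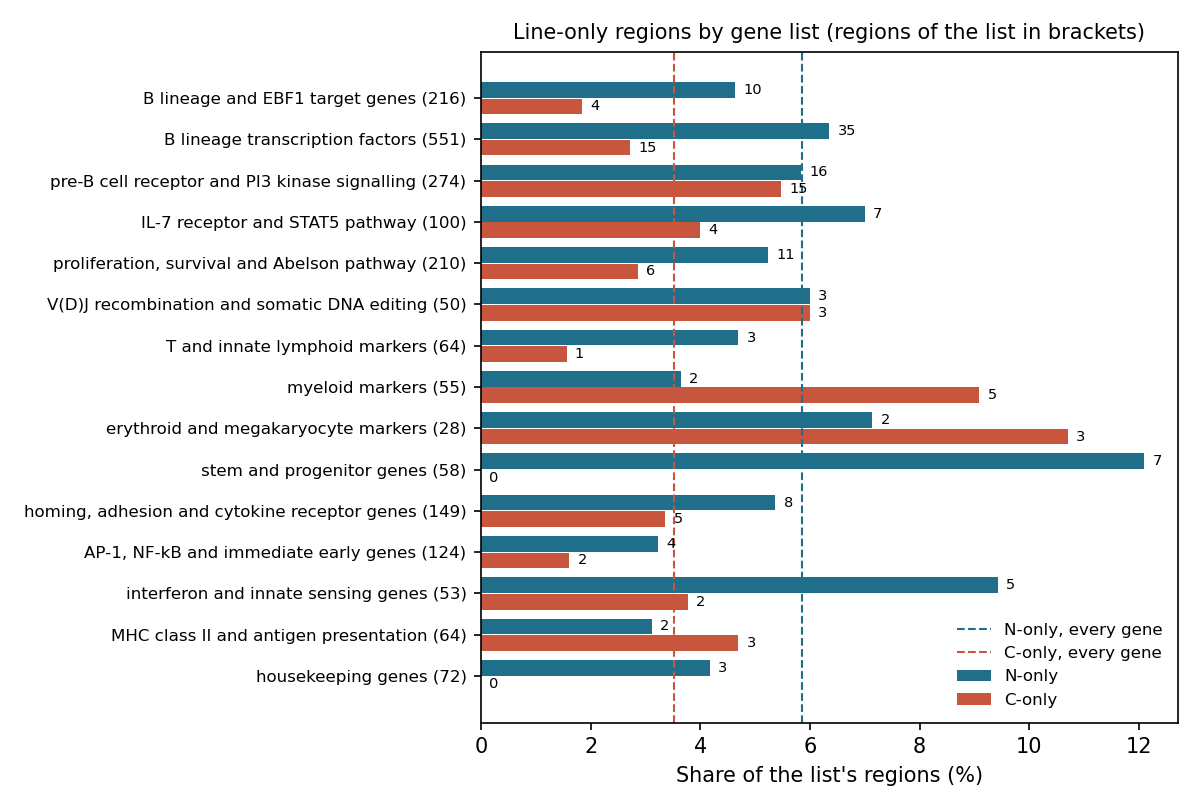
Share of each list's regions (x axis, percent) that were N-only or C-only, with the number of regions beside each bar and the list's number of regions in brackets; dashed lines give 5.85% and 3.52%, the shares over every gene with a region. The stem and progenitor list has 7 N-only and 0 C-only regions, and the myeloid list 2 and 5.

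Promoter windows, from 250 bases before to 50 after a start site, were matched to regions that covered at least 150 bases of them. Of 32817 windows, 8540 lay in regions of all 4 lists, 104 in N-only and 79 in C-only regions. The SP/KLF word was in 71.4% of the shared windows, 46.2% of the N-only and 59.5% of the C-only ones, against 35.6% of all windows, and the ETS word in 23.6%, 7.69% and 7.59%, against 8.86%. The AP-1 word was in 3.69%, 11.5% and 12.7%, against 7.81%. The EBF core was in 7.19%, 9.62% and 7.59%, against 6.56%. In numbers, the ETS word was in 8 N-only and 6 C-only windows, the AP-1 word in 12 and 10, and the EBF core in 10 and 6. The line-only shares of ETS lay near that of all windows, and the differences between shares were not tested. The median GC content was 62.3% (shared), 56.5% (N-only), 59.7% (C-only) and 52.7% (all windows), and its part in these shares was not tested.

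Whether the difference between the lines changed with treatment was tested at the 20365 regions in all 8 lists. No region passed (0%; limma interaction, lowest adjusted p 0.673), and 573 and 593 regions had an unadjusted p under 0.05. The regions named by smallest p include Clint1, whose gene end had 18.8 and 20.8 in EBF1-dTAG_N after dTAG-13 against 8.88 and 8.31 with DMSO, and 13.5 and 14.8 against 15.1 and 14.4 in EBF1-dTAG_C (interaction 1.18 ± 0.15 SE). With summit reads in place of fold enrichment the Clint1 interaction was 0.77 (limma, unadjusted p = 0.0166), and that of Tmem63b, the next by p in this direction, was 0.02 in place of 1.05. A region in Vrk1, a nuclear kinase, had 11.8 and 11.2 against 5.68 and 6.14 in EBF1-dTAG_N, and 6.47 and 7.87 against 13.1 and 10.1 in EBF1-dTAG_C (1.55 ± 0.25). The opposite order was seen near Gm15517 (-2.23 ± 0.34), where EBF1-dTAG_N had 7.28 and 8 against 22.7 and 24.1, and EBF1-dTAG_C had 8.37 and 14.8 against 6.81 and 8.59, which overlap. The authors' deposited tables gave negative log2 fold changes in both lines near Gm15517, -2.19 and -0.76. In Tmem108 both lines lay under their DMSO values, at 4.31 and 4.48 against 16.2 and 14 and at 6.86 and 8.03 against 11.6 and 10.9 (-1.29 ± 0.18). These regions were picked out of 20365 for their p-values, and none passed the adjusted threshold.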

How the data were processed

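ATAC-seq was made from 8 libraries of 2 lines and 2 treatments; the 4 dTAG-13 lists were compared, with the 4 DMSO lists as background. The submitters' processing notes name MACS2 2.2.7.1, Bowtie2 2.3.5.1, edgeR 3.32.0, deepTools 3.3.2 and SAMtools 1.10, with GRCm38 (mm10). The sources used here do not give read filters, any Tn5 shift or read numbers. Peak lists as deposited, 1 per library, hold the fold enrichment at the summit as a ratio to local background, and −log10 p and q (lowest -log10 q about 2), all as the authors' peak caller wrote them. Fold enrichment within a library carries no scaling between libraries, and the read that MACS2 adds to the summit and to the background pulls it towards 1 where reads are few. The authors' deposited tables of dTAG-13 against DMSO hold log2 fold changes, matched to regions by the largest overlap. Where they reached 2-fold, own differences had the same sign at 95% (EBF1-dTAG_N) and 94.7% (EBF1-dTAG_C) of regions in all 8 lists.

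Peaks sharing 1 bp were joined over the 4 lists; DMSO peaks counted by overlap. Summit reads and background were solved from fold enrichment and p (relative tolerance 1e-04). Regions were tied to the nearest RefSeq protein-coding span within 100 kb. Log2 fold enrichment at regions in all 4 lists was quantile-normalised and fitted with limma 3.58.1 in R 4.3.3 (line as the term; for the interaction, 4 groups over 8 lists) with Benjamini-Hochberg adjustment; the script was tested on simulated data. Stricter q, summit distance, lists of equal length, other scalings, a variance trend, a replicate block and each list left out were tried. Named regions, 1 a gene, were the 10 of highest mean rank; per direction the 10 of smallest p among 2-fold, non-overlapping ones; the 10 line-only ones of highest lower value; for 15 gene lists (297 of 298 genes in RefSeq) up to 4 shared regions of largest difference and the strongest line-only ones; and 5 interactions each way. The promoters printed were taken from the strongest line-only ones and the pro-B markers after values were seen. Some named regions are not reported here. Members and lists were chosen with earlier results of these data known.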

Additional observations from a re-analysis of the deposited data

Results flagged for a closer look

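In the scaled values of 16 of the 74 named regions in all 8 lists, both lists of 1 line lay above and both of the other line below their DMSO lists. Over all 20365 regions this held for 396 (1.94%) with EBF1-dTAG_N up and 413 (2.03%) with EBF1-dTAG_N down. The interaction test gave an adjusted p of at least 0.673 for every one of the 16, and 7 were named for their interaction p. The others, apart from Prc1, were named for a large line difference after dTAG-13. Both choices favour such opposite moves, so the number among named regions cannot be read against the shares over all regions. On the scale of the deposited fold enrichment, the dTAG-13 and DMSO lists of 1 line overlapped at 7 of the 16: in EBF1-dTAG_N at Prc1, Immp2l and Marchf6, and in EBF1-dTAG_C at Cdc5l, Gm15517, Flt3 and H2-DMb1. In the authors' deposited tables the log2 fold changes of the 2 lines had opposite signs at 6 of the 16 and the same sign at 10. Opposite were Vrk1 (1.07 in EBF1-dTAG_N and -0.08 in EBF1-dTAG_C), Map3k4 (0.35 and -0.36), Hnrnpll (-0.53 and 0.29), Cebpb (-0.32 and 0.26), Cdc5l (-0.22 and 0.08) and Klf1 (0.17 and -0.08). The same sign was seen in the authors' deposited tables at Gm15517 (-2.19 and -0.76), Sbk1 (-1.47 and -1.18), Marchf6 (0.94 and 0.26), Tmtc1 (0.76 and 0.09), H2-DMb1 (0.21 and 0.57), Mycn (0.07 and 0.56), Prc1 (0.37 and 0.13), Immp2l (0.25 and 0.27), Tmem156 (-0.17 and -0.23) and Flt3 (-0.06 and -0.05). With EBF1-dTAG_N up, the interaction in log2 was 1.55 at Vrk1, 1.33 at Map3k4, 1.20 at Marchf6, 0.58 at Tmtc1, 0.53 at Immp2l, 0.34 at Klf1 and 0.13 at Prc1. With EBF1-dTAG_N down, it was -2.23 at Gm15517, -1.37 at Hnrnpll, -1.36 at a site tied to Mycn, -1.32 at Sbk1, -1.30 at a site tied to Cebpb, -1.28 at Tmem156, -1.06 at Cdc5l, -0.94 at H2-DMb1 and -0.37 at Flt3. At Mycn, an oncogenic transcription factor, EBF1-dTAG_N had 8.28 and 8.11 after dTAG-13 against 13.5 and 9.96 with DMSO, and EBF1-dTAG_C had 12.9 and 12.5 against 7.44 and 7.35. At Cdc5l, a splicing factor, EBF1-dTAG_N had 6.62 and 8.36 against 13.1 and 13.1, and EBF1-dTAG_C had 20.7 and 23.3 against 21.2 and 17.8.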

How the results depend on the processing

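Having 2 lists a line, an unknown number of reads and a peak threshold limits what presence or absence can show. Peaks with a -log10 q of at least 10 left 1120 C-only regions, and N-only regions that were N-only with DMSO made up 20.7% and 23.7% with a -log10 q of at least 5 and 10 and 18.3% with equal lists; C-only ones made up 29.3% with equal lists. Leaving out 1 list gave 5153 to 8602 N-only, 2591 to 5203 C-only and 23571 to 25185 regions in all lists, differences of 1559 to 5429 peaks, and DMSO shares of 9.79% to 13.1% (N-only) and 19% to 32.7% (C-only); the fold enrichment tests called 0 regions each time, with the lone list assumed to vary like the others. N-only regions numbered 8602 and 6615 without the first and the second EBF1-dTAG_N list and 5566 and 5153 without the first and the second EBF1-dTAG_C list; C-only regions, in the same order, 2591, 3387, 5203 and 4931. With 1 list a line fewer lists have to agree, so these counts grow by construction. Higher in EBF1-dTAG_N and EBF1-dTAG_C were 36 and 28 regions with the variance trend, and 250 and 274 with summit reads and the spread over all 8 lists, the latter an alternative chosen after seeing the data; summit reads alone and the spread over all 8 lists alone, also added then, called 0 and 0. With the replicate number as a block both stayed at 0 calls (limma; 1409 and 1351 at an unadjusted p under 0.05) and so did the interaction. Lists of the same number did not deviate together between the dTAG-13 groups (r = -0.000862). A correlation over regions cannot settle whether the lists were paired. Peak names inside the list titled EBF1-dTAG_C DMSO replicate 1 carry the number 4 and those of EBF1-dTAG_C dTAG-13 replicate 2 the number 3; the titles were followed. Between the EBF1-dTAG_C groups r was -0.199, and the cause of this value was not tested. Crossing the numbers of the EBF1-dTAG_C DMSO lists, added after seeing the data, left 0 interaction calls. The 209 recomputed values of named regions kept their sign, but with summit reads 8 of 30 moved by over 1.5 times: the interactions at Clint1 (1.18 to 0.77) and Tmem63b (1.05 to 0.02) shrank, and 6 line differences grew, among them Luzp2 (1.61 to 2.72), Ret (1.47 to 2.34) and Arl4c (-1.42 to -2.80). The cause of the other changes was not tested.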

Other observations

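The antigen receptor loci, looked at after the values were seen, held more N-only than C-only regions. In the immunoglobulin heavy chain locus Igh (chr12:113256204-116009954) 84 of 177 regions were in all 4 lists, 17 (9.6%) were N-only and 3 (1.69%) C-only, and in the kappa locus Igk (chr6:67555636-70726754) 17 of 188 (9.04%) were N-only and 2 (1.06%) C-only. Over the genome these shares were 6.08% and 3.53%. The N-only regions of Igh had lower values of 3.64 to 12.3 and overlapped 8 annotated segments, among them Ighv9-3, Ighv1-72 and Ighv1-74, and 4 of the 17 were N-only with DMSO. The T cell receptor alpha and delta locus had 10 N-only (17.9%) and 2 C-only (3.57%) of 56 regions, with 1 over the constant segment Trac. Segments of these loci are alike in sequence, and how reads with several matches were counted is not given in the sources used here.

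Some genes gathered several regions of 1 line, again chosen after the values were seen. Pid1, which encodes a protein with a phosphotyrosine interaction domain, had 5 C-only regions among 6 (lower values 6.15 to 8.95), and all 5 were C-only with DMSO. Camk1d, a calmodulin-dependent kinase, had 5 of 9. Luzp2 had 6 N-only regions among 12 (5.19 to 17.9), of which 4 were N-only with DMSO, and Angpt1, the ligand of the TIE2 receptor, had 5 among 12 (5.19 to 13.5), of which 0 were. Arhgap26 and Foxp1 had 7 N-only regions each, beside 1 and 3 C-only ones. By chromosome, leaving out Y, N-only shares ran from 4.99% (chromosome 7) to 6.99% (chromosome 14) and C-only shares from 2.5% (chromosome 11) to 4.58% (chromosome 19). The median difference in log2 local background between the lines ran from -0.08 to 0.01 by chromosome.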
